A study of Mus musculus with 8 samples.

Results

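Transcripts of neutrophil granules and calcium-binding S100 proteins were followed in murine megakaryocytes (MKs) cultured alone or together with bone marrow mesenchymal stromal cells (MSCs). The 10 genes were chosen by symbol from the 13387 genes of the count table, and all 10 were found. They comprise Mpo, Elane, Ctsg and Prtn3 of the primary granule, Ltf, Camp, Ngp and Lcn2 of the secondary granule, and S100a8 and S100a9 of the cytosol. Bulk RNA-Seq libraries were made from C57BL/6 MKs kept alone, without treatment (4 libraries), or with C57BL/6 marrow MSCs sorted as CD45-Ter119-CD31-CD51+CD140a+ cells (4 libraries), each for 18 hours. The GEO labels describe the sequenced cells as MKs that had been isolated and separated from platelets, whereas the methods of the study describe pooled platelets from several wells. The MKs were enriched from flushed marrow with magnetic beads against CD41, so the starting cells were MK enriched and not sorted to purity. The study counts its replicates as mice, but the labels do not tie libraries to animals and the material of each was pooled, so p-values measure the spread between these libraries.

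Totals ran from 4939874 to 12523616 counts per library, and 3 counts corresponded to between 0.284 and 0.662 CPM (a gene's counts relative to its library's TMM-scaled total), which covers counting error only. Replicate 3 of the cocultures stood apart. It had the highest total but only 10735 genes with a count, against 12406 to 13193 in the other libraries, and 1012 of its genes were at 0 while holding at least 10 counts in every other library. Values that move by more than 1.5 times without it, and calls of named genes that change, are given both ways. The labelled cell type was checked on 15 MK and platelet markers, which all had counts in every library except for 1 marker at 0 in replicate 3 of the cocultures. Their summed level lay between 1959 and 2266 CPM in MKs cultured alone and between 1762 and 2388 CPM in the cocultures, and none of the 15 was called changed by edgeR. DESeq2 called Itgb3 lower (log2 fold change -1.23, adjusted p = 0.0479), and without replicate 3 of the cocultures edgeR called 3 of the 15 lower and 1 higher. All 10 markers of a neutrophil list (among them Ly6g, Csf3r and Cxcr2) were also present in MKs cultured alone. There they summed to between 11022 and 12351 CPM, and all are also on the granule and maturation lists below.

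Neutrophils store their antimicrobial proteins in granules that form in a fixed order during maturation. Primary, or azurophil, granules form in promyelocytes and carry myeloperoxidase and the serine proteases, whereas secondary, or specific, granules form later, in myelocytes and metamyelocytes, and carry lactoferrin, cathelicidin and lipocalin. The transcripts follow the same order, so primary granule messages are largely lost before a neutrophil is mature. S100A8 and S100A9 pair to form calprotectin, which binds calcium, zinc and manganese and makes up much of the cytosolic protein of a neutrophil. Neutrophils and their precursors are abundant in the marrow from which MKs are enriched.

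On GRCm38 in the GENCODE vM21 annotation, the 10 genes are all protein-coding and lie on 6 chromosomes. The primary granule genes are Mpo (chr11:87793581-87804413, plus strand), Elane (chr10:79886247-79888215, plus strand), Prtn3 (chr10:79874476-79883174, plus strand) and Ctsg (chr14:56099881-56102574, minus strand). The secondary granule genes are Ltf (chr9:111019271-111042767, plus strand), Camp (chr9:109847379-109849617, minus strand), Ngp (chr9:110419747-110423012, plus strand) and Lcn2 (chr2:32384633-32388252, minus strand). S100a8 (chr3:90668978-90670035, plus strand) and S100a9 (chr3:90692632-90695721, minus strand) lie 22597 bases apart. The count table holds 1 value per gene and library, so no exon or UTR was measured separately.

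The 250 bases before each RefSeq transcription start are shown for all genes of the set except Camp and Lcn2. They are given as in RefSeq on GRCm38.p6, the build of mm10. All 10 genes had a RefSeq promoter. Sequences run 5′ to 3′ in the direction of the gene, and only the longest stretch outside annotated exons is printed. The motif AGGAAGT, the core bound by the myeloid factor PU.1, is in capitals on either strand in the first 5, and the motif TTNNGNAA of the C/EBP factors, likewise on either strand, is in capitals in the last 3. Of the genes not shown, Camp has no match to TTNNGNAA, and the match of Lcn2 lies outside its longest stretch free of exons.
Mpo, chr11:87793534-87793580, plus strand: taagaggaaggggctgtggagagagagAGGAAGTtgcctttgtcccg
Elane, chr10:79886062-79886246, plus strand: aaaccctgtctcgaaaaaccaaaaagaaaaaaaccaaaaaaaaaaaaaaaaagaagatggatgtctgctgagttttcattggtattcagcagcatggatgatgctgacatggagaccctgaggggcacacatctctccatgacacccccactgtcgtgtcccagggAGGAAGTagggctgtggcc
Ctsg, chr14:56102575-56102824, minus strand: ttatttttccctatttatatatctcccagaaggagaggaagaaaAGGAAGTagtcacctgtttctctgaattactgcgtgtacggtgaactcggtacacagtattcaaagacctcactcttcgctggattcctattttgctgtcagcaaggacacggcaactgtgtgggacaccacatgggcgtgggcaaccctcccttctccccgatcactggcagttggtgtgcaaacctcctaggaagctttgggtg
Prtn3, chr10:79879417-79879613, plus strand: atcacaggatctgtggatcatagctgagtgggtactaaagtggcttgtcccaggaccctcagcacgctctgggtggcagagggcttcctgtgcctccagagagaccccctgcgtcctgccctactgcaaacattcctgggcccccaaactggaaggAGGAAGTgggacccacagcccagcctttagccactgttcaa
S100a8, chr3:90668821-90668977, plus strand: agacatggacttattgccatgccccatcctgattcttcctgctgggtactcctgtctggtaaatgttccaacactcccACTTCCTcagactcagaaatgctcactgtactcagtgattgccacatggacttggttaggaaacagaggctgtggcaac
S100a9, chr3:90695722-90695971, minus strand: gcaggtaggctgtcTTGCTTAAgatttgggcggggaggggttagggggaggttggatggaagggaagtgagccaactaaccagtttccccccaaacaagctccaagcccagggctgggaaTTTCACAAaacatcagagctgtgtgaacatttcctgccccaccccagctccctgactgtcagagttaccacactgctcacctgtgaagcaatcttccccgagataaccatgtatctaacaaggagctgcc
Ltf, chr9:111019042-111019270, plus strand: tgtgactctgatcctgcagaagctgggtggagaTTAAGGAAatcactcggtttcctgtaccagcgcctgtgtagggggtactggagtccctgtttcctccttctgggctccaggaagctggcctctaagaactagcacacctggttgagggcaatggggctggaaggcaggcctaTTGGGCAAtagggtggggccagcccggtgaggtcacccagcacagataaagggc
Ngp, chr9:110419558-110419746, plus strand: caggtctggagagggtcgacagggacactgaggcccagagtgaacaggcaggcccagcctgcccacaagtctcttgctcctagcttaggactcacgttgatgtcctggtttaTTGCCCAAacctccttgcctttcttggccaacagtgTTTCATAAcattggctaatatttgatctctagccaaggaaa

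AGGAAGT lay in the 250-base window of all 4 primary granule genes, of S100a8, and of 0 of the 4 secondary granule genes, against 7.69% of the 32851 promoter windows searched. The matches began 223 bases before the start in Mpo, 206 in Ctsg, 94 in Prtn3, 84 in Elane and 172 in S100a8. TTNNGNAA lay in 0 of 4 primary granule windows, 3 of 4 secondary granule windows (Ltf, Ngp and Lcn2) and both S100 windows, against 36.8% of all windows. CAACGG, a core bound by MYB, lay in Elane and Prtn3, which are neighbours on chromosome 10 with 3073 bases between them, and in 4.05% of all windows. TATAAA lay in S100a8 and Ctsg, and in 12.4% of all windows. All motifs were searched on both strands. They were chosen after the sequences had been read, do not overlap each other in the windows, and describe letters only, not sites at which a factor was shown to bind.

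The comparison of cocultures with MKs cultured alone addressed how contact with MSCs changes the MK transcriptome. All 10 genes were lower in the cocultures, where a call by edgeR's quasi-likelihood test needed a change of 2-fold or more and an adjusted p, over 11722 genes, no higher than 0.05. By the same rule 7.31% of the genes tested were called lower (857 genes), 13.2% higher (1544 genes) and 20.5% either way. Without replicate 3 of the cocultures, 1890 of 12267 genes tested were called lower and 2530 higher. With all libraries scaled to the markers of MKs and platelets, 453 genes were called lower and 2466 higher. The 10 genes were still called lower in both cases. Falls ranged from 5.34-fold for Camp to 24.8-fold for Mpo, with a median log2 fold change of -3.25 over the 10 genes against 0.034 over all genes tested. In each of the 10 genes every coculture lay below every library of MKs cultured alone, which held for 21.1% of all genes tested, and the reverse held for 19.3%. Fewer neutrophils or precursors, less of their RNA per cell and added RNA of other cells cannot be told apart in bulk libraries. Their parts in these falls were not tested.

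**Figure D1:**
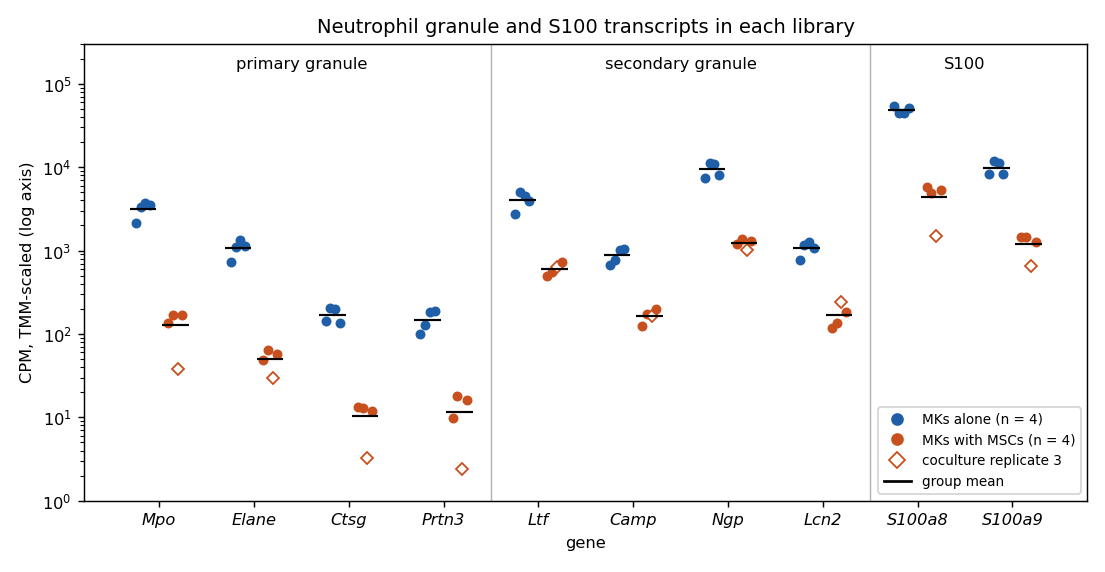
Level of each gene in each library, in TMM-scaled CPM on a log axis, grouped by granule class, with bars at the group means (n = 4 libraries each). The groups are separated for all 10 genes, and coculture replicate 3 (open diamonds) lies lowest for the primary granule genes, for Ngp and for both S100 genes but not for Ltf, Camp or Lcn2.

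Mpo encodes myeloperoxidase, which makes hypochlorous acid from hydrogen peroxide and is the most abundant protein of the primary granule. Its levels in replicates 1 to 4 were 2119, 3337, 3716 and 3505 CPM in MKs cultured alone and 134, 171, 38.2 and 168 CPM in the cocultures. The coculture values were low throughout and lowest in replicate 3, with no overlap (log2 fold change -4.63 ± 0.50 (SE), edgeR adjusted p = 0.00027). Elane encodes neutrophil elastase, a serine protease with a broad range of substrates. Elane read 738, 1097, 1349 and 1138 CPM in MKs cultured alone and 48.8, 65.0, 29.6 and 57.8 CPM in the cocultures. All 4 cocultures lay far below the other group (log2 fold change -4.43 ± 0.32 (SE), edgeR adjusted p = 4.13e-05).

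Ctsg encodes cathepsin G, a serine protease with chymotrypsin-like activity that can also activate platelets. Ctsg had 141, 207, 199.9 and 136 CPM in MKs cultured alone and 13.4, 12.9, 3.24 and 11.8 CPM in the cocultures. Replicate 3 of the cocultures was far below the other 3 (log2 fold change -4.05 ± 0.46 (SE), edgeR adjusted p = 0.000357). Prtn3 encodes proteinase 3, the closest relative of elastase among these genes. Prtn3 stood at 99.98, 127, 181 and 188 CPM in MKs cultured alone and 9.76, 18.1, 2.41 and 16.3 CPM in the cocultures. The groups again did not overlap (log2 fold change -3.68 ± 0.58 (SE), edgeR adjusted p = 0.00239), although the SE was the largest of the 10. In the annotation Prtn3 overlaps the end of Plppr3, so reads there are uncertain, and Plppr3 held 9.36 CPM on average in MKs cultured alone and was not called (log2 fold change -2.28, edgeR adjusted p = 0.0911), although it was called lower without replicate 3 of the cocultures (-1.95).

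The secondary granule genes fell less. Ltf encodes lactoferrin, an iron-binding protein that withholds iron from microbes. Its CPM values were 2712, 5008, 4471 and 3933 in MKs cultured alone and 491, 556, 637 and 731 in the cocultures. The cocultures were evenly low, and replicate 3 was not the lowest (log2 fold change -2.74 ± 0.25 (SE), edgeR adjusted p = 0.000125). Camp encodes the precursor of the cathelicidin antimicrobial peptide. Camp gave 674, 777, 1025 and 1049 CPM in MKs cultured alone and 126, 172, 164 and 198 CPM in the cocultures. It had the smallest fall of the 10 genes, still several times its SE (log2 fold change -2.42 ± 0.23 (SE), edgeR adjusted p = 0.000142).

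Ngp encodes neutrophilic granule protein, a cystatin-related protein, and was the most abundant granule transcript of the set. Ngp reached 7364, 11292, 10875 and 8152 CPM in MKs cultured alone and 1196, 1379, 1028 and 1292 CPM in the cocultures. Its coculture levels had a narrow range (log2 fold change -2.94 ± 0.23 (SE), edgeR adjusted p = 5.44e-05). Lcn2 encodes lipocalin 2, which sequesters bacterial siderophores. Lcn2 showed 782, 1174, 1258 and 1083 CPM in MKs cultured alone and 118, 137, 244 and 185 CPM in the cocultures. Here replicate 3 was the highest of the cocultures, and the groups did not overlap (log2 fold change -2.65 ± 0.28 (SE), edgeR adjusted p = 0.000271).

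S100a8 was the most abundant transcript of all 13387 genes in MKs cultured alone by mean CPM and ranked 13 in the cocultures. Its levels were 53730, 44426, 44168 and 51505 CPM in MKs cultured alone and 5824, 4926, 1506 and 5358 CPM in the cocultures. Replicate 3 of the cocultures was well below the other 3, which lay between 4926 and 5824 CPM (log2 fold change -3.46 ± 0.42 (SE), edgeR adjusted p = 0.000565). S100a9 ranked 5 in MKs cultured alone and 72 in the cocultures. S100a9 measured 8396, 11722, 11265 and 8206 CPM in MKs cultured alone and 1459, 1440, 658 and 1281 CPM in the cocultures. Its fall was of similar size to that of its partner (log2 fold change -3.03 ± 0.31 (SE), edgeR adjusted p = 0.000211), and the ratio of S100a8 to S100a9 counts overlapped between groups, from 3.79 to 6.40 in MKs cultured alone and from 2.29 to 4.18 in the cocultures. Without replicate 3 of the cocultures the log2 fold changes were -3.19 for S100a8 and -2.85 for S100a9.

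**Figure D2:**
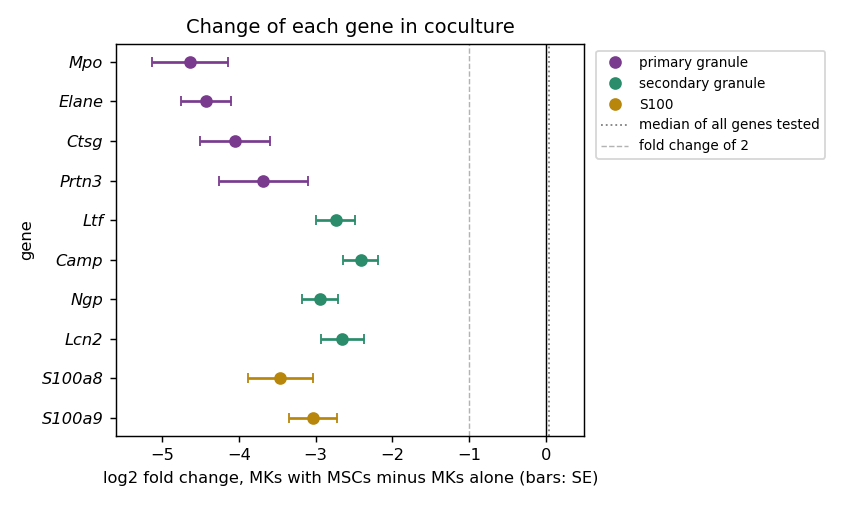
Log2 fold change of each gene (cocultures minus MKs cultured alone, edgeR, bars are SE), coloured by granule class. The 4 primary granule genes lie between -4.63 and -3.68, and the 4 secondary granule genes lie between -2.94 and -2.42.

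Among the 8 granule genes of the set, every primary granule gene fell further than every secondary granule gene, with log2 fold changes from -4.63 to -3.68 against -2.94 to -2.42, and the S100 genes lay between. The medians of the other genes listed for these granules had the opposite order, at -0.68 over 9 genes listed as primary and -2.42 over 13 listed as secondary. Neither list is specific to its granule. The median of the first is the value of Lyz2, which macrophages also make, and the second holds Ptx3, which stromal cells also make. In the first list 4 genes were called lower and 2 higher (Gusb at 1.27 and Igfbp4 at 1.38), and Ms4a3 and Igfbp4 are also on the progenitor list. In the second list 9 were called lower and 1 higher. The cause of the opposite order was not tested. Within the set, the separation of primary from secondary granule genes held in each of the alternative fits run and with each library left out. Without replicate 3 of the cocultures the ranges were -4.35 to -3.37 and -2.89 to -2.43. The place of the S100 genes was less firm, since S100a9 (-2.85) then fell within the secondary granule range, and without replicate 1 of the cocultures S100a8 (-3.62) fell further than Prtn3 (-3.60). In the summed CPM of each class, the secondary granule genes exceeded the primary granule genes 3.41-fold ± 0.45 (SD, n = 4) in MKs cultured alone, with values from 2.86 to 3.83. The ratio was 9.38, 8.41, 28.2 and 9.49 in coculture replicates 1 to 4, so no coculture overlapped the other group and replicate 3 was far above the other 3. The mean was 13.9 ± 9.6 (SD, n = 4), and 9.10 without replicate 3. The ratio was taken within libraries and so does not depend on their scaling, and no test was run on it because the classes were compared with earlier results of these data known.

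Per kilobase of transcript, S100a8 was highest in MKs cultured alone at 99706 ± 10061 CPM per kb (SD, n = 4), followed by S100a9 at 19070 ± 3572 and Ngp at 7709 ± 1599 CPM per kb. The next 5 were Ltf (1470 ± 358), Lcn2 (1174 ± 227), Camp (1162 ± 244), Mpo (1152 ± 261) and Elane (1098 ± 258 CPM per kb). The ranges of neighbours in this order overlapped, and the genes were not compared within libraries. Ctsg (171 ± 37) and Prtn3 (145 ± 42 CPM per kb) came last, and their ranges likewise overlapped. In the cocultures the first 3 places were kept by S100a8 (9061 ± 4046), S100a9 (2330 ± 724) and Ngp (1002 ± 123 CPM per kb). Mpo and Elane, which had matched Camp and Lcn2 in MKs cultured alone, then had 46.4 ± 22.5 and 51.1 ± 15.5 CPM per kb, against 218 ± 39 for Camp and 187 ± 61 CPM per kb for Lcn2.

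Together the 10 genes took up 7.84% ± 0.55 (SD, n = 4) of all counts in MKs cultured alone and 0.831% ± 0.336 in the cocultures. The shares ran from 7.04% to 8.28% in the first group. The shares in coculture replicates 1 to 4 were 0.991%, 0.973%, 0.329% and 1.03%, and the mean was 0.998% without replicate 3. Counting error was small beside this spread, since the Wilson 95% interval of the lowest share was 0.326% to 0.332%. S100a8 alone held 4.83% ± 0.28 of the counts of MKs cultured alone and 0.465% ± 0.236 of those of the cocultures.

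**Figure D3:**
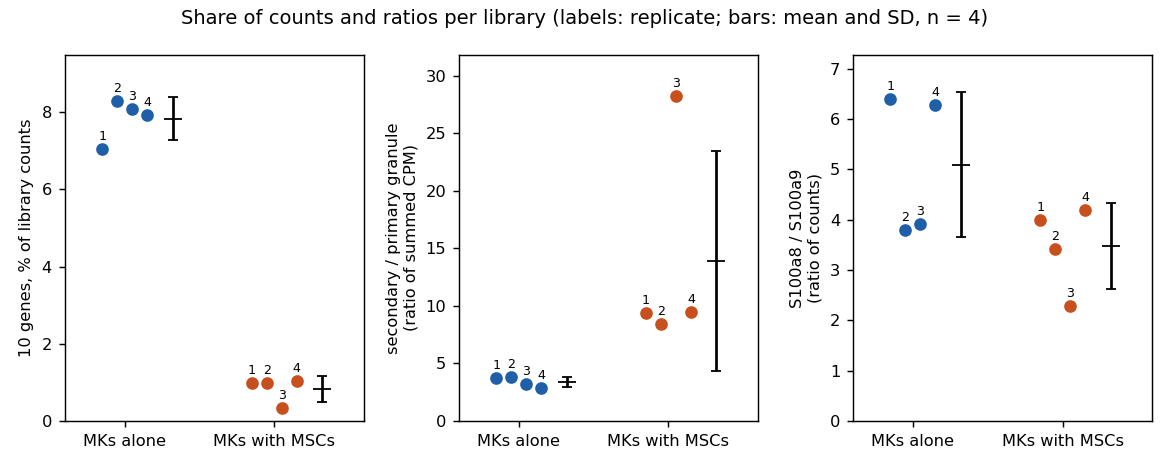
Share of library counts held by the 10 genes, ratio of summed secondary to primary granule CPM, and ratio of S100a8 to S100a9 counts in each library, with replicate numbers and the mean ± SD of each group (n = 4). The first 2 quantities separate the groups, with coculture replicate 3 at 0.329% and at a ratio of 28.2, and the ratio of the S100 genes does not.

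Other genes of neutrophil granules and maturation were taken from 4 lists with 59 genes, of which 57 passed the filter on low counts. Of these, 32 were called lower, 8 higher and 17 were not called, with a median log2 fold change of -2.31. Leaving out replicate 3 of the cocultures raised the number called lower to 41, leaving out single other libraries gave 27 to 30, and scaling to markers of MKs and platelets gave 26. In the mature neutrophil list 14 of 23 were called lower (20 without replicate 3 of the cocultures) and none higher. Retnlg, a resistin-like protein of neutrophils, went from 3156 to 293 CPM on average (log2 fold change -3.43 ± 0.32, edgeR adjusted p = 0.000128), and Anxa1, an annexin that restrains leukocyte adhesion, from 3130 to 1455 CPM on average (log2 fold change -1.10 ± 0.18, edgeR adjusted p = 0.00277). The call for Anxa1 was lost under scaling to the markers (-0.52) and without replicate 4 of the cocultures (-0.98). In the secondary granule list 9 of 13 were called lower, among them Chil3, a chitinase-like protein, from 8321 to 1012 CPM on average (log2 fold change -3.04 ± 0.38, edgeR adjusted p = 0.000628), and Mmp8, neutrophil collagenase, from 5054 to 409 CPM on average (log2 fold change -3.63 ± 0.54, edgeR adjusted p = 0.00178).

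Some listed genes went the other way. Ptx3, a soluble pattern recognition molecule also made by stromal cells, had 0 counts in each library of MKs cultured alone and 43.2 to 277 CPM in the cocultures, at least 293-fold higher against a floor of 3 counts per library, or at least 184-fold without replicate 4 of the cocultures. Genes of tertiary granules and secretory vesicles were divided, with 5 of 12 called lower and 5 higher. Mmp9, the gelatinase that defines the tertiary granule, went from 1061 to 139.9 CPM on average (log2 fold change -2.92 ± 0.41, edgeR adjusted p = 0.00132), whereas Adam8, a membrane protease, went from 125 to 333 CPM on average (log2 fold change 1.41 ± 0.39, edgeR adjusted p = 0.03) and Anpep, aminopeptidase N, from 0.321 to 19.6 CPM on average (log2 fold change 5.76 ± 0.80, edgeR adjusted p = 0.00115). The call for Adam8 was lost without any of replicates 1 to 4 of MKs cultured alone or replicates 2 or 3 of the cocultures, with a log2 fold change of 0.91 without replicate 3 of the cocultures. The other primary granule list was mixed too, with 4 of 9 lower and 2 higher and a median log2 fold change of -0.68. In it Lyz2, lysozyme, which macrophages also make, went from 15030 to 9370 CPM on average (log2 fold change -0.68 ± 0.20, edgeR adjusted p = 0.0365) and missed the fold threshold, with a log2 fold change of -0.068 under scaling to markers of MKs and platelets. Cd63, a tetraspanin of granule and lysosome membranes, went from 953 to 1310 CPM on average (log2 fold change 0.46 ± 0.19, edgeR adjusted p = 0.113), and was called higher under scaling to markers of MKs and platelets (1.07, edgeR adjusted p = 0.0277). Igfbp4, a binding protein for insulin-like growth factors, rose from 73.4 to 191 CPM on average (log2 fold change 1.38 ± 0.23, edgeR adjusted p = 0.00286).

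**Figure D4:**
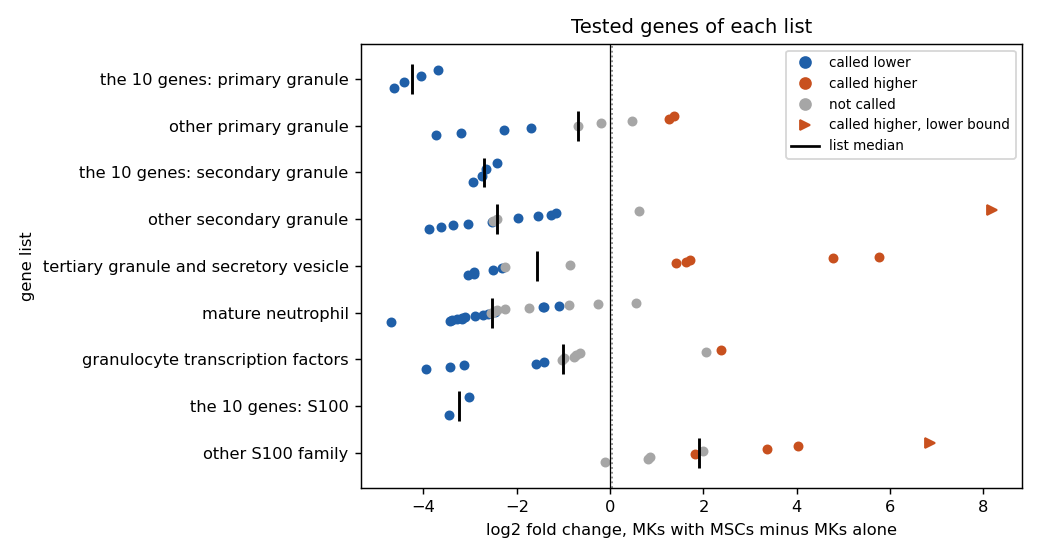
Log2 fold changes of the tested genes in each list, with the list medians as black bars, the median of all genes tested (0.034) as a dotted line, and genes at 0 counts in MKs cultured alone (Ptx3, S100a16) as arrowheads at their lower bound. All genes of the set lie on the left, the mature neutrophil genes do so except for 1 that was not called (0.55), and the rest of the S100 family lies on the right except for S100a11 (-0.11).

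The rest of the S100 family did not follow S100a8 and S100a9. None of the 8 tested members was called lower and 4 were called higher, with a median log2 fold change of 1.90, and without replicate 3 of the cocultures 6 of 9 were called higher. S100a6, a calcium-binding protein of fibroblasts and many other cells, went from 149 to 1534 CPM on average (log2 fold change 3.37 ± 0.49, edgeR adjusted p = 0.00143), and S100a11, which is widely expressed, from 688 to 636 CPM on average (log2 fold change -0.11 ± 0.29, edgeR adjusted p = 0.819), a value that turned positive (0.61) under scaling to markers of MKs and platelets. On chromosome 3, S100a4 and S100a6, which lie within 100 kb of S100a8, rose by 4.03 and 3.37 on the log2 scale, with edgeR adjusted p = 0.00176 and 0.00143. Both were highest in replicate 3 of the cocultures, where S100a4 read 566 CPM against 100.3 to 147 CPM in the other 3, and S100a6 read 3287 CPM against 844 to 1079 CPM. Without that library the log2 fold changes were 3.08 for S100a4 and 2.65 for S100a6, and both were still called. Across all 10 genes, 41 other genes of the table lay within 100 kb, and 3 of the 33 tested were called lower and 7 higher. The 3 were Epx, eosinophil peroxidase, 59587 bases from Mpo, and Prss57, a further granule serine protease, and Arid3a near Elane and Prtn3. The call for Prss57 (-4.08, edgeR adjusted p = 0.0176) was lost without any of replicates 1 to 3 of MKs cultured alone or replicate 4 of the cocultures, with adjusted p from 0.0501 to 0.0563. S100a4, Prss57 and Arid3a were named after their values were seen.

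Transcription factors of granulocyte differentiation moved in both directions. C/EBPε, encoded by Cebpe, drives the secondary granule genes, and Cebpe went from 80.4 to 9.19 CPM on average (log2 fold change -3.13 ± 0.63, edgeR adjusted p = 0.00753). Cebpd went from 73.3 to 24.3 CPM on average (log2 fold change -1.59 ± 0.27, edgeR adjusted p = 0.00349), a call that was lost under scaling to markers of MKs and platelets, where the log2 fold change was -1.003. Cebpa, which acts at the entry to the lineage, went from 19.8 to 9.63 CPM on average (log2 fold change -1.04 ± 0.43, edgeR adjusted p = 0.117), and was called lower by DESeq2 (-1.06, adjusted p = 0.0155). In contrast, Cebpb, which serves emergency granulopoiesis and macrophages, rose from 38.7 to 202 CPM on average (log2 fold change 2.38 ± 0.55, edgeR adjusted p = 0.0148), a call that was lost without replicate 1 or replicate 2 of MKs cultured alone (edgeR adjusted p = 0.0556 and 0.0529). Cebpb was highest in replicate 3 of the cocultures, at 447 CPM against 86.9 to 180 CPM in the other 3, and its log2 fold change was 1.61 without that library. Spi1, which encodes PU.1, went from 227 to 137 CPM on average (log2 fold change -0.73 ± 0.49, edgeR adjusted p = 0.325), and its log2 fold change was 0.093 under scaling to those markers and -1.50 (called lower) without replicate 3 of the cocultures. Cbfb, the partner of the RUNX factors, went from 193 to 97.1 CPM on average (log2 fold change -0.99 ± 0.41, edgeR adjusted p = 0.113). In the whole list, 5 of 12 were called lower and 1 higher.

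Partners of the granule proteins were not uniform. Serpinb1a, the main intracellular inhibitor of elastase, proteinase 3 and cathepsin G, went from 889 to 119 CPM on average (log2 fold change -2.90 ± 0.41, edgeR adjusted p = 0.00128), and Srgn, serglycin, the proteoglycan that packs the proteases into granules, from 1557 to 323 CPM on average (log2 fold change -2.27 ± 0.33, edgeR adjusted p = 0.00148). Serpinb6a, another intracellular serpin, rose from 38.7 to 419 CPM on average (log2 fold change 3.43 ± 0.21, edgeR adjusted p = 1.85e-05). Of the 7 tested inhibitors and activators, 3 were called lower and 2 higher. Among receptors, Cd36, a scavenger receptor, rose from 37.1 to 1030 CPM on average (log2 fold change 4.80 ± 0.42, edgeR adjusted p = 0.000105) and Bsg, basigin, from 135 to 465 CPM on average (log2 fold change 1.78 ± 0.17, edgeR adjusted p = 0.000145). Fpr2, a formyl peptide receptor of neutrophils that cathelicidin activates, fell from 143 to 18.9 CPM on average (log2 fold change -2.92 ± 0.37, edgeR adjusted p = 0.000726). Of the 7 receptors tested, 1 was called lower and 3 higher.

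Among 8985 other genes with a mean of at least 10 CPM, the 5 whose log2(CPM + 1) over the 8 libraries followed the mean profile of the 10 genes most closely were Klhl6, Prg2, Slc2a3, Ltb4r1 and Gmfg, with Pearson's r from 0.997 to 0.998. All libraries of a gene share their depth and both groups, so these values are descriptive. Prg2, the major basic protein of eosinophils, fell by 5.26 on the log2 scale and Slc2a3, a glucose transporter, by 1.96, with edgeR adjusted p = 0.000128 and 0.000151.

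Markers of other cells moved with these results. All 10 neutrophil markers were called lower, and their sum went from between 11022 and 12351 CPM to between 562 and 1519 CPM, or between 1296 and 1519 CPM without replicate 3 of the cocultures. Eosinophil markers (8 of 9 called lower), mast cell and basophil markers (5 of 7), monocyte markers (4 of 7), B cell markers (4 of 9) and markers of granulocyte-monocyte progenitors (7 of 9) were lower as well, and 1 monocyte marker and 1 progenitor marker were called higher. Macrophage markers (9 of 10) and MSC markers (6 of 8) were called higher, with 1 MSC marker lower, and 1 of 4 erythroid markers was called higher. That erythroid call (Tfrc, log2 fold change 1.23) was lost without any of replicates 2 to 4 of MKs cultured alone or replicate 1 of the cocultures. Without replicate 3 of the cocultures 3 of 5 erythroid markers were called lower and 6 of 9 B cell markers. Their sums went from between 277 and 331 CPM to between 1281 and 1651 CPM for macrophages, and from between 78.0 and 102 CPM to between 1156 and 3827 CPM for MSCs, or between 2679 and 3827 CPM without replicate 3. No neutrophil marker was at 0 in any library of MKs cultured alone. All 10 neutrophil markers are also on the granule and maturation lists above, so their calls are not further evidence. The progenitor list shares genes with those lists. The part of these cells in the changes of the 10 genes was not tested.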

How the data were processed

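The authors deposited raw counts per gene for 8 paired-end SMART-Seq HT libraries. Per the methods, reads were filtered with fastp and quantified with kallisto against mm10 transcripts. These deposited values are whole and not normalized. How transcript estimates were summed and rounded, and whether strand was used, is not given in the sources used here. Groups came from the labels. The study's own model was DESeq2 with a batch term, but the labels name no batches, so the groups were compared without a covariate. The robust quasi-likelihood test of edgeR 4.0.16 (R 4.3.3) was used, with TMM factors, filterByExpr and Benjamini-Hochberg adjustment over all genes tested. Calls required 2-fold change or more, adjusted p no higher than 0.05, and 1 CPM or more on average in either group. The code was tested on simulated data. Positions and lengths (longest coding transcript) came from GENCODE vM21 on GRCm38, and promoters from RefSeq on GRCm38.p6. DESeq2 1.42.0, other scalings and filters, the replicate number as a block and each library left out were run as alternatives, and leaving out libraries for the ratio of granule classes and for the lower bounds was added after seeing the data. The 10 genes and all lists were chosen with earlier results of these data known. Genes named were the 10, the 2 most abundant of each list, the C/EBP factors, any called gene furthest against its list, and the 5 most similar profiles, and other genes named were chosen after their values were seen.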

Additional observations from a re-analysis of the deposited data

Results flagged for a closer look

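In 26 groups of 4 libraries, the level of each gene and 3 summary quantities were examined for a library far from the other 3, and 6 such values were found, where chance gives about 1.3. All 6 were in replicate 3 of the cocultures. Its log2(CPM + 1) was 10.6 for S100a8, against 12.27 to 12.51 in the other cocultures. The values were 9.36 for S100a9 (10.3 to 10.5 in the others), 5.29 for Mpo (7.08 to 7.43) and 2.09 for Ctsg (3.68 to 3.84). The 10 genes held 0.329% of its counts, against 0.973% to 1.03% in the others, and its ratio of secondary to primary granule transcripts was 28.2, against 8.41 to 9.49.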

How the results depend on the processing

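The 10 genes were called lower under all alternatives run, including the replicate number as a block (10 with edgeR and 10 with DESeq2), and all 160 values of single genes of the set under an alternative kept their direction and side of the threshold. Their median log2 fold change moved from -3.25 to -2.77 when libraries were scaled to the MK and platelet markers. That scaling moved the median of all genes to 0.60, and relative to it the 10 genes lay at -3.37. With all other genes as the denominator, the share of the 10 genes in MKs cultured alone was 8.51%. Under scaling to the MK and platelet markers, Ltf lay at -2.13 and Lcn2 at -1.97. Other neutrophil genes called numbered 40 (32 lower), and 32 (24 lower) with the replicate block in edgeR. The replicate numbers were not taken as pairs in the main comparison. Deviations of same-numbered libraries from their group means correlated across genes at 0.37, 0.020, 0.15 and 0.028. Not every library correlated best with its own number. Taken from means of only 4 libraries, these deviations cannot decide whether the numbers mark pairs. Over all genes, the 857 called lower became 573 with the block in edgeR, 1392 with DESeq2 and the block, 453 when scaled to the markers, and 539 to 1890 on leaving out single libraries. The 1544 called higher became 1096 with the block in edgeR, 2466 when scaled to the markers, and from 1071 up to 2530 on leaving out single libraries. Values changed sign for S100a11 (0.61 when scaled to the markers, -0.43 to 0.077 with a library left out), Spi1 (0.093 when scaled to the markers) and the erythroid marker Hbb-bs (-1.22 with the block in edgeR, -1.26 with the block in DESeq2, -1.999 to 1.07 with a library left out). With DESeq2 and the block, Cbfb (-1.12, adjusted p = 0.00469), Spi1 (-1.03, adjusted p = 0.0336) and Itgb3 (-1.45, adjusted p = 0.0262) were called lower, and the block in edgeR ended the calls of Ms4a3, Ms4a1, Prss57 and Gzme (adjusted p from 0.0513 to 0.0727). Among other named genes, 19 values that kept their sign no longer passed the threshold and 10 newly passed it. Of the 7 values that changed sign, Hbb-bs without replicate 3 of the cocultures (-1.999) was newly called lower. The cause of these changes was not tested. Levels were lowest for Ctsg and Prtn3, at 3.24 and 2.41 CPM (31 and 23 counts) in replicate 3 of the cocultures. That library had the highest total, and 3 counts are 0.314 CPM in it.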

Other observations

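Gzme, a granzyme gene 15052 bases from Ctsg on chromosome 14, had 0 counts in all libraries of MKs cultured alone and 9.42 to 24.0 CPM in the cocultures, at least 36.0-fold higher against a floor of 3 counts per library. It was picked after its values were seen. The ratio of S100a8 to S100a9 counts was 6.40, 3.79, 3.92 and 6.28 in replicates 1 to 4 of MKs cultured alone and 3.99, 3.42, 2.29 and 4.18 in the cocultures.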
